A study of Mus musculus with 6 samples.

Results

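The S100, annexin and galectin genes described here are S100a4, S100a6, S100a10, S100a11, S100a13, Anxa2, Anxa5, Anxa6, Lgals1 and Lgals3, which are 10 of the 10772 rows measured. They were chosen by symbol, as genes whose level was much lower in DKO libraries together with relatives of those genes, so the values that chose them are the levels in DKO and WT described below. That difference is therefore given as a description, without a test. Natural killer T (NKT) cells, T cells with a nearly invariant receptor for lipids held by CD1d, were sorted from the thymus of mice on a mixed C57BL/6 and 129 background. The sorted cells, called P1, bound a CD1d tetramer carrying PBS-57 and were negative for CD44, NK1.1 and CD24. The 3 WT libraries were set against 3 libraries of the genotype UTX/JMJD3 DKO, named for the histone H3 lysine 27 demethylases encoded by Kdm6a and Kdm6b. Each genotype had 2 libraries from females (replicates 1 and 2) and 1 from a male (replicate 3). The age of the mice, the means of deletion, any pooling and whether each library is a separate animal are not stated in the labels. P-values therefore cover only the spread between these libraries, which may be technical.

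S100 proteins are small calcium-binding proteins with EF-hand motifs that act as dimers and bind target proteins when calcium rises. Annexins bind membrane phospholipids in a calcium-dependent way, and several S100 proteins bind annexins, the best known pair being S100A10 with annexin A2. Galectins bind beta-galactoside sugars on glycoproteins, inside and outside the cell. In T cells, S100A4, S100A6, galectin-1 and annexin A2 are known as genes of effector and memory cells.

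Levels are RPKM, which scales reads by the length of the gene and by library size. The RPKM values imply totals of 32400000 and 34400000 reads for replicate 1 of WT and DKO, and 5000000 to 7200000 for the other 4 libraries. All 10 genes passed the filter on low values (RPKM 1 or more in 3 or more libraries). NKT and T cell markers had 15 of 15 genes with a row, with a summed RPKM of 4942 to 5650 in WT against 5441 to 6602 in DKO. Zbtb16, encoding the NKT factor PLZF, was low in each library, at 2.67 to 3.50 in WT and 0.776 to 5.35 in DKO. Replicate 1 of both genotypes stood apart in markers of CD4 and CD8 co-expressing thymocytes (8 of 10 listed genes with a row), whose summed level was 459 (WT) and 481 (DKO), where it was 36.0 to 75.4 in the other 4 libraries. Cd8a was at 173.9 and 147.6 in these libraries and at most 5.71 in the others. Of 18 myeloid markers 3 had a row (Fcer1g, Cd68 and Ctss), with summed levels of 108 to 149 in WT against 136 to 182 in DKO. Fcer1g was at 2.90, 12.0 and 11.8 in WT against 0.0956, 0 and 0 in DKO, and Cd68 at 8.85, 5.83 and 4.26 against 0, 0 and 3.08. Ctss, which made up most of the sum, was wholly higher in DKO, at 96.3, 131 and 121 against 135.5, 181.5 and 155. Of 12 granulocyte and mast cell markers, S100a8 and S100a9 among them, 0 had a row. B cell markers had 2 of 10 genes with a row, at 59.3 to 90.0 and 77.7 to 117.7, stromal and epithelial markers 1 of 14, at 9.82 to 33.9 and 3.04 to 28.4, and erythroid markers 1 of 7, at 0 to 1.06 and 0 to 21.1. Gamma-delta and NK markers had 7 of 12 genes with a row, with summed levels of 841 to 992 in WT against 167 to 192 in DKO. No row was found for Trdc, Ncr1, Eomes, Prf1 and Klra8, the others listed. Most of the sum came from Tcrg-C1, Tcrg-C2 and Tcrg-C4, segments of the TCR gamma locus. Their means were 218.8, 304.6 and 296.5 in WT against 50.8, 60.6 and 55.25 in DKO. These 3 of the 7 were lower by limma at an adjusted p of 0.05, where 0.0748% of all genes were. By voom 0 of the 7 passed, as did 0 of all 10694 genes tested. Groups did not overlap in 6 of the 7 in the lower direction, where 11.4% of all genes had that, and Gzma overlapped. A row needed RPKM above 3 in 2 or more libraries. Klrb1c (at most 0.784 in DKO) and Sox13 (1.02, 0.0845 and 3.57 in DKO) met this through WT, as did Fcer1g and Cd68. The list was also chosen with earlier results known, so nothing is read from these counts. The part of these markers in the results below was not tested. In sorted cells taken in bulk, fewer cells of a type and less RNA per cell cannot be told apart. Kdm6a averaged 4.62 ± 2.57 over WT libraries and 4.59 ± 0.937 over DKO libraries (SD, n = 3), and Kdm6b 2.80 ± 1.05 and 1.66 ± 0.834. Neither checks the genotype, since a value over the whole gene does not separate deleted from kept exons.

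The S100 genes ranged from the most lowered gene of the table to genes whose groups overlapped. S100a4, which encodes a calcium-binding partner of non-muscle myosin, was at RPKM 389.8, 1169 and 747 in WT replicates 1 to 3 and at 8.18, 38.1 and 6.19 in DKO replicates 1 to 3. Every DKO library lay far below every WT library, and DKO replicate 2 stood above the other DKO libraries. The log2 change on log2(RPKM + 1) was -5.67 ± 0.60 (SE), and 0 of 10694 tested genes had a lower value. Behind the DKO levels were 141, 135 and 20 reads, against 6321, 4238 and 1884 in WT. S100a6, which encodes calcyclin and is the next gene with a row after S100a4, was at 246, 469.8 and 403 in WT against 27.7, 47.7 and 56.3 in DKO. The groups were widely apart, with a log2 change of -3.07 ± 0.33. The S100a4 to S100a6 ratio within a library, which no scaling between libraries alters, was 1.58, 2.49 and 1.85 in WT against 0.295, 0.797 and 0.110 in DKO. S100a4 was thus the higher of both in each WT library and the lower in each DKO library.

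S100a10, encoding the annexin A2 partner also called p11, was at RPKM 1029, 1473 and 1058 in WT against 435, 347.5 and 728 in DKO. The groups did not overlap, and the male DKO library was the highest of its group. The log2 change was -1.29 ± 0.28. S100a11, whose protein takes part in membrane repair, was at 292, 312 and 308 in WT against 203, 142 and 294 in DKO. The WT libraries were nearly equal, and the male DKO library fell within their range. S100a13, whose protein helps to export proteins that lack a signal peptide, was at 55.6, 78.6 and 74.1 in WT against 39.1, 61.6 and 67.0 in DKO. Its groups overlapped, with a log2 change of -0.33 ± 0.29, against -0.57 ± 0.26 for S100a11.

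**Figure D1:**
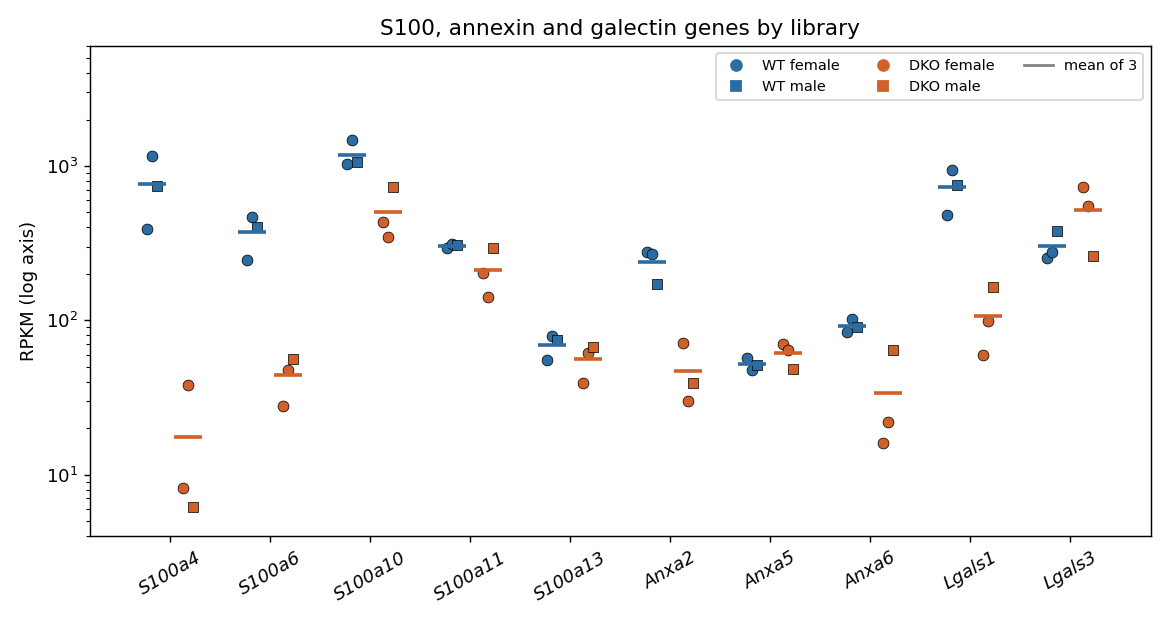
Level of each of the 10 genes in each library (RPKM, log axis), with circles for female and squares for male libraries and a line at the mean of 3. S100a4, S100a6, S100a10, Anxa2, Anxa6 and Lgals1 have DKO points wholly below the WT points, while S100a11, S100a13, Anxa5 and Lgals3 overlap.

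The summed RPKM of these 5 S100 genes was 2013, 3502 and 2590 in WT against 713, 637 and 1152 in DKO. S100a4 made up 19.4%, 33.4% and 28.8% of it in WT and 1.15%, 5.98% and 0.537% in DKO. S100a10 was the largest part in every library, with 40.9% to 51.1% in WT and 54.6% to 63.2% in DKO. The share of S100a11 was 8.91% to 14.5% in WT and 22.3% to 28.4% in DKO, although its own level was no higher in DKO.

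**Figure D2:**
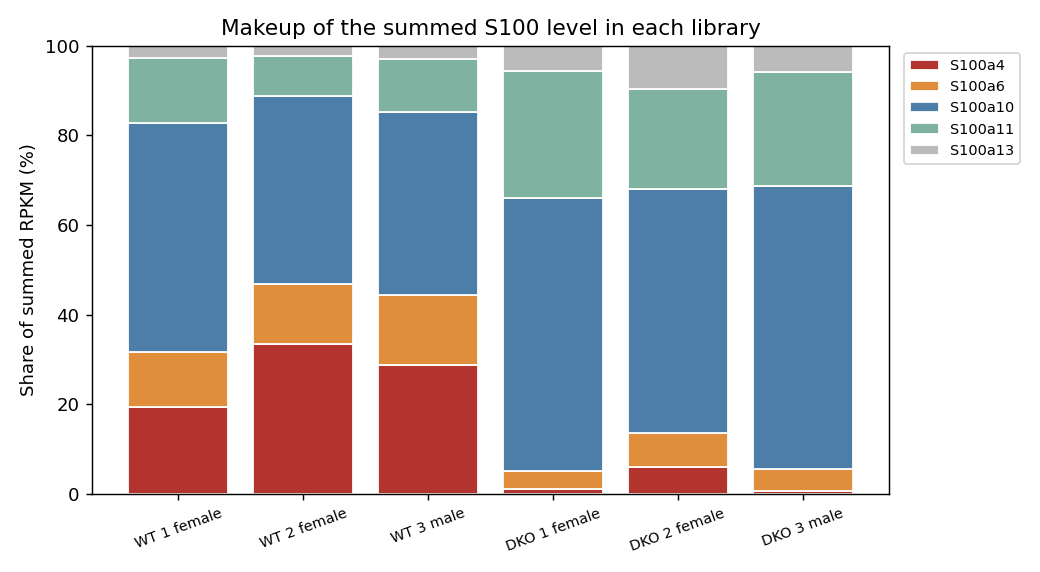
Share of the summed RPKM of 5 S100 genes taken by each gene (percent, bars from 0 to 100) in each of the 6 libraries. S100a4 takes 19.4% to 33.4% in WT and at most 5.98% in DKO, and S100a10 is the largest share in each bar.

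Sequences just upstream of the start are shown for S100a4 and S100a6, the most lowered pair, and for S100a11, a gene of the same cluster whose groups overlapped. They are the 250 bases before the annotated start, from RefSeq on GRCm38.p6, another build than the mm9 named for the deposited values. Capitals mark matches on either strand to 6 motifs: the TATA box, the GC box, the KLF box, the AP-1 site, the RUNX site and the ETS site, whose letters follow the sequences. No match of one motif overlapped one of another. The S100a4 window is chr3:90603520-90603769, that of S100a6 chr3:90612644-90612893 and that of S100a11 chr3:93520246-93520495, each on the plus strand.
S100a4: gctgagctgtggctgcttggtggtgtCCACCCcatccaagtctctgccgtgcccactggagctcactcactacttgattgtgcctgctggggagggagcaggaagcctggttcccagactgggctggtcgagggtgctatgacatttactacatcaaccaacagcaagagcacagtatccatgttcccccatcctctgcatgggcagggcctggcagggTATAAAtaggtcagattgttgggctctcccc
S100a6: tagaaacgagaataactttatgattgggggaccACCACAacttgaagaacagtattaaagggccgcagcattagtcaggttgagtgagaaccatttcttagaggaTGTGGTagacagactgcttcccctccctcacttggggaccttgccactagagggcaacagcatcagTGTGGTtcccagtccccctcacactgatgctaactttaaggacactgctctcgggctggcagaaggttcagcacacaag
S100a11: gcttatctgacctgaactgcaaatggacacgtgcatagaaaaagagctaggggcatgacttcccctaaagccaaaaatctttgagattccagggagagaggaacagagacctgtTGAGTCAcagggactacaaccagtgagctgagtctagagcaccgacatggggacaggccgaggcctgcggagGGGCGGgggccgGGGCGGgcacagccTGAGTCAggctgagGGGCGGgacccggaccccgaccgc

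Positions below count back from -1, the base just before the start. The S100a4 window held TATAAA, beginning at -31, and 1 KLF box. The S100a6 window held neither and had 3 RUNX matches, at -217, -145 and -79. The S100a11 window held 3 GC boxes and 2 AP-1 matches, at -136 and -38. Among 32851 RefSeq windows of this length, the TATA box (TATAAA) was in 12.4%, the GC box (GGGCGG) in 32.7% and the KLF box (CCACCC) in 28.1%. The AP-1 site (TGANTCA) was in 6.75%, the RUNX site (TGTGGT) in 14% and the ETS site (CCGGAA) in 12%. Windows were at hand for 7 of the 10 genes, not for S100a10, Anxa6 and Lgals1, and of these 7 TATAAA was in 2, GGGCGG in 3, CCACCC in 3, TGANTCA in 2, TGTGGT in 1 and CCGGAA in 0. A match is a description of the letters and does not show binding.

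Of the 3 annexins, Anxa2 and Anxa6 had DKO libraries wholly below WT libraries and Anxa5 did not. Anxa2, which encodes annexin A2, an organiser of membrane and actin contacts, was at RPKM 276, 270.2 and 172 in WT against 71.4, 29.9 and 39.1 in DKO. No DKO library reached a WT library, and the log2 change was -2.39 ± 0.34. Anxa6, whose protein is an annexin with a duplicated core known for a role in endocytosis and membrane organisation, was at 84.5, 102.6 and 89.9 in WT against 16.1, 21.9 and 63.7 in DKO. Its male DKO library stood well above both female DKO libraries and below the WT libraries, and the log2 change was -1.66 ± 0.44. Anxa5, which encodes the phosphatidylserine-binding annexin A5, was at 56.5, 47.3 and 51.6 in WT against 70.5, 64.4 and 48.3 in DKO. Its groups overlapped, with a log2 change of 0.22 ± 0.25.

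Annexin A2 and S100A10 form a complex, and their transcripts did not keep a fixed ratio. The S100a10 to Anxa2 ratio of RPKM was 3.73, 5.45 and 6.14 in WT against 6.10, 11.6 and 18.6 in DKO. The lowest DKO ratio lay below the highest WT ratio, so the groups overlapped. The Anxa2 to Anxa5 ratio was 4.88, 5.72 and 3.34 in WT against 1.012, 0.464 and 0.809 in DKO, with no overlap. The 250 bases before the Anxa2 start (RefSeq, GRCm38.p6, chr9:69453433-69453682, plus strand) are shown because Anxa2 was the most lowered annexin, with capitals as above.
Anxa2: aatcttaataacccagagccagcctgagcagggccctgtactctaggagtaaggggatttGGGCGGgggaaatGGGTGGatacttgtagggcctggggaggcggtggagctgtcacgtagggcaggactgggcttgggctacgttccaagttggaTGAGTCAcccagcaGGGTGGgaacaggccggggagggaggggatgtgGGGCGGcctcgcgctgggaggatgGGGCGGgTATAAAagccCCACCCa

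The Anxa2 window held TATAAA at -17, 3 GC boxes, 3 KLF boxes and 1 AP-1 match at -95.

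The 2 galectins differed in opposite senses in the female libraries. Lgals1, which encodes galectin-1, a dimeric galectin that crosslinks T cell surface glycoproteins, was at RPKM 485, 944.5 and 758 in WT against 59.6, 98.9 and 164 in DKO. The groups did not overlap, and the log2 change was -2.82 ± 0.37. Lgals3, which encodes galectin-3, a galectin with a long self-associating tail, was at 255, 277 and 378 in WT against 734, 551 and 262.0 in DKO. Both female DKO libraries were above every WT library, while the male DKO library fell within the WT range, and the log2 change was 0.66 ± 0.35. It was 1.09 without the male DKO library and 0.23 without both replicates 1, over a range of 0.23 to 1.52 across the alternatives. The Lgals3 to Lgals1 ratio was 0.526, 0.293 and 0.498 in WT against 12.3, 5.57 and 1.60 in DKO. Galectin-1 transcripts were thus the more abundant in each WT library and galectin-3 transcripts in each DKO library. The 250 bases before the Lgals3 start (RefSeq, GRCm38.p6, chr14:47373610-47373859, plus strand) are given for contrast with the lowered genes.
Lgals3: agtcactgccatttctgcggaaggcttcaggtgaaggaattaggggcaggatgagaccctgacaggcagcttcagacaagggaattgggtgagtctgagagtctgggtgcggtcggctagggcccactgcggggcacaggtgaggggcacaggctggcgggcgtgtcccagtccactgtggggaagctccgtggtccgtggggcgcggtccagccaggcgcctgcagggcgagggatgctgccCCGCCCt

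The Lgals3 window held a single GC box, at -7 on the opposite strand, and no TATAAA.

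DKO libraries lay wholly below WT libraries for 6 of the 10 genes (S100a4, S100a6, S100a10, Anxa2, Anxa6 and Lgals1) and wholly above for 0. Of all tested genes 0.0842% passed by limma at an adjusted p of 0.05 in either direction, 11.4% were wholly below and 5.71% wholly above. Since the genes were chosen on this difference nothing is read from the comparison. Their median log2 change was -1.47, beside -0.11 over all tested genes. The 5th to 95th percentile of all tested genes ran from -1.27 to 0.85. S100a4, S100a6, Lgals1, Anxa2, Anxa6 and S100a10 lay below this range, and the other 4 genes lay within it.

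**Figure D3:**
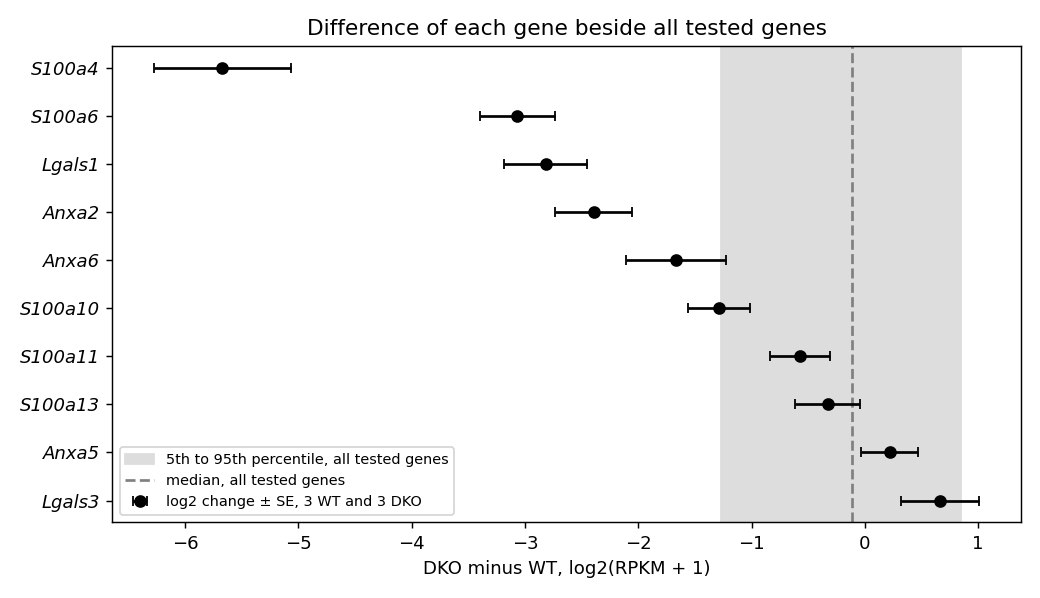
DKO minus WT on log2(RPKM + 1) for each of the 10 genes (points, bars are SE, 3 libraries a group), with the 5th to 95th percentile of 10694 tested genes in grey and their median as a dashed line. The points run from -5.67 for S100a4 to 0.66 for Lgals3.

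The order of the genes by level, which RPKM allows because it is per length, changed between genotypes. In WT the mean RPKM ran from S100a10 (1187) through S100a4 (768), Lgals1 (729), S100a6 (373), S100a11 (304), Lgals3 (303), Anxa2 (239.5), Anxa6 (92.3) and S100a13 (69.5) to Anxa5 (51.8). Neighbours in this order whose ranges did not overlap were Lgals1 and S100a6, Anxa2 and Anxa6, and Anxa6 and S100a13, and the ranges of the other neighbours overlapped. Within libraries S100a10 was nonetheless above S100a4 in 3 of 3 WT libraries. In DKO the order was Lgals3 (516), S100a10 (504), S100a11 (213), Lgals1 (107), Anxa5 (61.1), S100a13 (55.9), Anxa2 (46.8), S100a6 (43.9), Anxa6 (33.9) and S100a4 (17.5). Only S100a10 and S100a11 were neighbours without overlap there. By its mean S100a4 was second in WT and last in DKO. Library by library it ranked 3, 2 and 3 in WT and 10, 8 and 10 in DKO, since Lgals1 was above it in 2 of 3 WT libraries and Anxa2 and Anxa6 were below it in DKO replicate 2.

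The spread among the 3 libraries was wider in DKO than in WT for each of the 10 genes, measured as the highest level over the lowest. It was 6.15 in DKO and 3.00 in WT for S100a4, 3.97 and 1.21 for Anxa6, and 2.80 and 1.48 for Lgals3. S100a11 went from 1.07 in WT to 2.08 in DKO. Among 6505 tested genes with mean RPKM of at least 10 and no value of 0, 62.6% were wider in DKO, with medians of 1.76 in DKO and 1.54 in WT.

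Sex was not used to choose the genes and was tested by limma with genotype in the model. At a Benjamini-Hochberg adjusted p of 0.05 over all genes, 0 of the 10 genes differed between male and female libraries, where 0.00935% of all genes did. At an unadjusted p of 0.05 there were also 0 of 10, against 3.52% of all genes. Voom on recovered reads gave 0 of 10 by either measure, and its shares over all genes were not counted. Male minus female was largest for Anxa6, at 0.83 ± 0.41 (SE) log2 units, and lowest for S100a4, at -0.63 ± 0.64 (adjusted p = 0.998 by limma for both).

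Whether the difference between genotypes itself differed between sexes was tested as an interaction, with 1 male library a genotype, so that the spread in this fit came from the female libraries alone. None of the 10 genes passed at an adjusted p of 0.05 (0% of all genes did), and 2 of 10 had an unadjusted p under 0.05, against 2.74% of all genes. The voom share over all genes was not counted for this fit, so no voom count is given. With an arm of 1 library, and genes chosen on their levels in DKO and WT, nothing is read from these counts, and the values are a description. The 2 genes were Lgals3, with a log2 change of 1.26 between the female groups and -0.53 between the male libraries (difference -1.78 ± 0.52 SE, unadjusted p = 0.00898 and adjusted p = 0.9997 by limma), and Anxa6, with -2.25 and -0.49 (difference 1.76 ± 0.65, unadjusted p = 0.0269, adjusted p = 0.9997). Over the alternatives 0 to 3 of the 10 genes had an unadjusted p under 0.05, 0 of them without a variance trend. Both female DKO libraries lay on one side of both female WT libraries, and the male difference had the other sign, for Lgals3 and Anxa5 alone, 2 of the 10 genes, beside 13.2% of all genes. S100a10 was at -1.66 and -0.54. Of the 10 genes 8 were lower in DKO in all 3 pairs of libraries of the same sex and number. Anxa5 and Lgals3 were higher in DKO in both female pairs and lower in the male pair. The share of all genes lower in all 3 pairs was not counted. Since the genes were chosen on this difference, nothing is read from the count. S100a4 was at -5.41, -4.90 and -6.70 in the pairs of replicates 1, 2 and 3, S100a6 at -3.11, -3.27 and -2.82, and Lgals1 at -3.00, -3.24 and -2.21. Anxa2 was at -1.94, -3.13 and -2.11. S100a11, whose groups overlapped, was at -0.52, -1.13 and -0.06, and S100a13 at -0.50, -0.35 and -0.14.

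**Figure D4:**
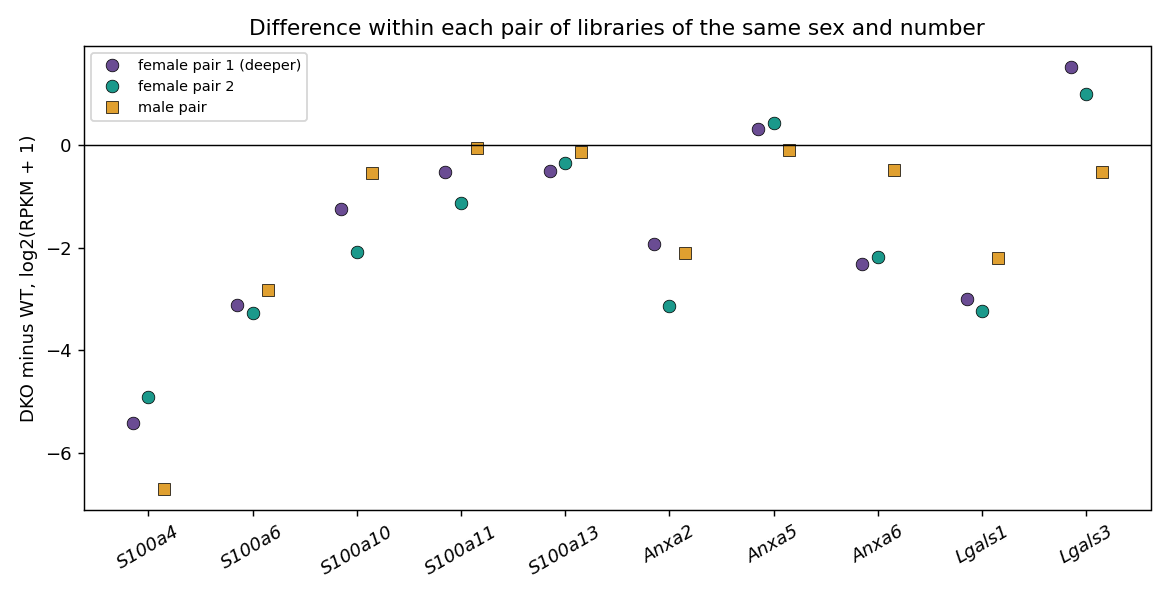
DKO minus WT on log2(RPKM + 1) for each of the 10 genes, taken between libraries of the same sex and number (circles female pairs, square male pair). The square is the point nearest 0 for each gene but S100a4 and Anxa2, and S100a4, S100a6, Anxa2 and Lgals1 lie at -1.94 or below in each pair.

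Values without the deeper replicate 1 libraries, whose columns alone are named as a set and which carried the high thymocyte markers, were close to those of all 6 for most of the lowered genes. In the 4 other libraries the log2 change was -5.80 for S100a4, -3.05 for S100a6, -2.72 for Lgals1, -2.62 for Anxa2, -1.33 for Anxa6 and -1.31 for S100a10. Between the deeper libraries it was -5.41, -3.11, -3.00, -1.94, -2.33 and -1.24, in the same order.

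Likeness to S100a4 was measured as Pearson's r on log2(RPKM + 1) over the 6 libraries, points that share their genotype, sex and depth, and is given as a description. Among the 10 genes S100a6 (0.96), Lgals1 (0.92), Anxa2 (0.85), S100a10 (0.77) and Anxa6 (0.73) were most like it. This r includes the difference between DKO and WT on which the genes were chosen, so nothing is read from the order. After each genotype's mean was subtracted, r was 0.45 for S100a6, 0.19 for Lgals1, -0.51 for Anxa2, -0.42 for S100a10 and -0.30 for Anxa6. For the rest of the 10 genes it was then 0.44 for S100a13, 0.35 for Lgals3, 0.11 for Anxa5 and -0.74 for S100a11. Among 6532 other genes of mean RPKM of at least 10, those most like S100a4 over the 6 libraries were Memo1 (0.9963), Gm5145, Tcrg-C4, Skp1a and Csnk2b (0.9828). After the genotype means were subtracted they were Ruvbl1 (0.9968), Fam3c, ENSMUSG00000078295, Rsc1a1 and Ddi2 (0.9921). Rsc1a1 and Ddi2 had the same value in every library. With 6 libraries the highest of 6532 values of r can be this high without a link, and none was tested.

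Of 33 other S100, annexin and galectin genes and relatives listed, 8 had a row and 0 passed the test, and the other 25 were not analysed here. By limma at an adjusted p of 0.05, 0 of the 8 were lower and 0 higher, where 0.0748% and 0.00935% of all genes were, and with an unadjusted p under 0.05 there were 0 by limma and 1, higher, by voom. Over all genes such an unadjusted p by limma was reached by 8.14% lower and 2.88% higher, and by voom by 10.4% and 5.23%. DKO libraries lay wholly below WT libraries for 0 of the 8 and wholly above for 1, where 11.4% and 5.71% of all genes did. Lgals9, encoding galectin-9, was at RPKM 178 ± 34.5 (WT) and 175 ± 35.3 (DKO), and Lgals3bp, whose product is a secreted galectin ligand, at 177 ± 13.02 and 160.3 ± 15.7 (SD, n = 3 each). Anxa7 was at 55.3 ± 11.8 and 42.0 ± 10.02, Lgals8 at 6.75 ± 0.633 and 10.4 ± 3.19, Lgals4 at 1.45 ± 1.65 and 3.72 ± 3.65, and S100pbp, which encodes an S100P-binding protein and belongs to none of these families, at 4.23 ± 1.17 and 7.15 ± 1.89. S100a3, the nearest gene before S100a4, was at 0.0432, 7.73 and 3.33 in WT against 0.163, 0 and 12.4 in DKO, with no order between the groups. Lgals9 and Lgals3bp were chosen after their values were seen, as were S100a3 and Myh9.

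Genes around S100a4 were examined because S100a4, S100a6, S100a13, S100a10 and S100a11 lie in 1 cluster. Of the 10 genes with a row on each side of S100a4 in RefSeq order, 16 were not among the 10 genes described here. By limma 0 of these 16 passed in either direction. With an unadjusted p under 0.05 there were 0 lower and 1 higher by limma, against 8.14% and 2.88% of all genes. By voom there were 0 in either direction, against 10.4% and 5.23%. Groups did not overlap in 0 of 16 in the lower direction and 2 in the higher, where 11.4% and 5.71% of all genes did not. Their median log2 change was -0.20, beside -0.11 over all genes. Snapin, which encodes a protein of vesicle fusion, was at RPKM 16.7 ± 0.899 (WT) and 32.4 ± 10.2 (DKO) (log2 change 0.86 ± 0.33, adjusted p = 0.373 by limma). The pseudogene Gm9774 was at 69.5 ± 9.28 and 53.1 ± 9.43, Jtb at 82.8 ± 14.6 and 66.9 ± 29.4, and Gm23723 at 1.36 ± 1.61 and 2.88 ± 1.81.

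Of 29 listed partners of S100 proteins and annexins 18 were tested, and 0 passed in either direction. With an unadjusted p under 0.05 there were 0 by limma and 2 lower by voom, where voom had 10.4% of all genes lower. DKO libraries lay wholly below WT libraries for 3 of the 18 and wholly above for 0, where 11.4% and 5.71% of all genes did. The log2 change was below 0 for 16 of 18, with a median of -0.29, beside 57.1% of all genes and their median of -0.11, and this difference from all genes was not tested. Trp53, encoding p53, which S100A4 binds, was at RPKM 59.5, 45.3 and 45.8 in WT against 37.1, 5.18 and 37.7 in DKO (adjusted p = 0.497 by limma). DKO replicate 2 was far below the rest. The calpain gene Capn2 was at 24.2 ± 3.39 and 16.8 ± 1.32, the chaperone gene Stip1 at 140.5 ± 50.7 and 98.3 ± 19.98, and the p53 ligase gene Mdm2 at 37.4 ± 11.4 and 49.5 ± 7.06. Myh9, encoding the non-muscle myosin heavy chain bound by S100A4, was at 4.94, 4.97 and 4.62 in WT against 2.61, 4.47 and 2.68 in DKO. Ahnak, a partner of the S100A10 and annexin A2 complex, was not analysed here.

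Of 23 listed galectin counter-receptors and enzymes that build their glycans 18 were tested, and 0 passed in either direction. DKO libraries lay wholly below WT libraries for 3 of the 18 and wholly above for 3, where 11.4% and 5.71% of all genes did. These shares were not tested against each other. With an unadjusted p under 0.05 there were 2 lower and 3 higher by limma, against 8.14% and 2.88% of all genes, and 2 and 4 by voom, against 10.4% and 5.23%, and the median log2 change was -0.09. Cd7, a receptor bound by galectin-1, was at RPKM 42.5, 82.7 and 54.0 in WT against 12.3, 10.9 and 11.6 in DKO. All WT libraries were above the DKO libraries, and the log2 change was -2.22 ± 0.32, with an adjusted p of 0.05002 by limma that was 0.0476 with a stricter filter and 0.0174 with array weights, over a range of 0.0174 to 0.330. Ptprc, encoding CD45, was at 96.3 ± 22.5 and 180.7 ± 37.7 (adjusted p = 0.230), and Cd2 at 184.5 ± 4.37 and 285 ± 52.9 (adjusted p = 0.2996). St6gal1, whose enzyme caps glycans with sialic acid, was at 30.8 ± 6.66 and 59.9 ± 15.0 (adjusted p = 0.273 by limma).

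Genes known to accompany S100a4 in effector and memory T cells had values below 0 for 19 of 21 tested genes (26 listed), where 57.1% of all tested genes did, a difference that was not tested. They had a median log2 change of -0.45, with 0 passing in either direction (4 lower and 0 higher with an unadjusted p under 0.05, against 8.14% and 2.88% of all genes, and 5 lower by voom, against 10.4%). Groups did not overlap in 5 of the 21 in the lower direction, where 11.4% of all genes had that. Capg, encoding an actin-capping protein, was at RPKM 236, 210.0 and 199.9 in WT against 82.2, 68.7 and 134 in DKO (log2 change -1.23 ± 0.27, adjusted p = 0.147). Lsp1, an actin-binding protein gene of leukocytes, was at 363 ± 4.30 and 239.8 ± 11.9 (adjusted p = 0.2475). Crip1, a LIM-domain protein gene, was at 115 ± 23.9 and 76.9 ± 16.4 (adjusted p = 0.453), and the surface protein gene Ly6c2 at 37.5 ± 14.7 and 17.3 ± 20.4 (adjusted p = 0.43).

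Of 31 listed calcium-handling genes outside the S100 family 25 were tested, with a median log2 change of -0.07, beside -0.11 over all genes, and 0 passing in either direction. With an unadjusted p under 0.05 there were 3 lower and 0 higher by limma, against 8.14% and 2.88% of all genes, and 4 and 0 by voom, against 10.4% and 5.23%. DKO libraries lay wholly below WT libraries for 2 of the 25 and wholly above for 1, where 11.4% and 5.71% of all genes did. Calm3, which encodes a calcium sensor, was at RPKM 100.2 ± 21.4 (WT) and 56.3 ± 9.18 (DKO; SD, n = 3 each, adjusted p = 0.271 by limma). Efhd2, which encodes another EF-hand protein, was at 31.9 ± 9.14 and 17.6 ± 7.98, and the kinase gene Camk4 at 23.6 ± 3.77 and 13.5 ± 9.20.

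**Figure D5:**
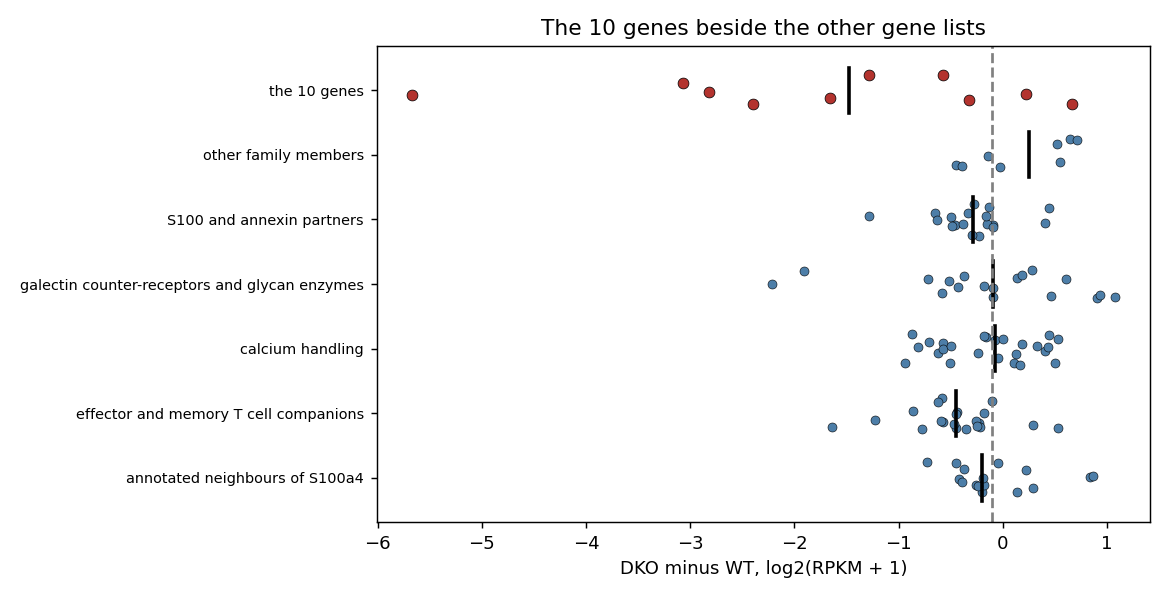
DKO minus WT on log2(RPKM + 1) for the 10 genes and for the tested genes of 6 other lists, 1 point a gene, with the median of each list as a black bar and the median of all tested genes as a dashed line. The 10 genes have a median of -1.47, and the medians of the other lists run from -0.45 to 0.25.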

How the data were processed

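The authors deposited RPKM values, a column for each library, with gene lengths. Per the labels' protocols, extraction followed a published method and an indexed Illumina kit was used. The submitters' processing notes name Bowtie and mm9, and other upstream steps were not stated. In the deposited table each row was above RPKM 3 in 2 or more libraries, so silent genes were not seen. RPKM multiplied by length came to whole multiples of a step for each library, within 0.05, for 99.6% to 100.0% of values, which gave read totals and recovered reads. At the median gene length 3 reads were worth RPKM 0.046 to 0.314, a floor that covers counting error only, since reads without molecular identifiers are not independent molecules.

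Identifiers were matched to reference gene names (9918 of 10772), the row of highest mean was kept per symbol (10755 genes), and 10694 genes that reached RPKM 1 in 3 or more libraries were tested on log2(RPKM + 1), which understates changes of low genes, by limma 3.58.1 in R 4.3.3 (lmFit, eBayes with trend, 4 residual degrees of freedom, 2 for the interaction, Benjamini-Hochberg adjustment, threshold 0.05). The test was tried on simulated data. Values and plots were made in Python 3.11.15 (numpy 2.4.6, pandas 2.3.3, matplotlib 3.10.9).

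The genes and lists were chosen with earlier results of these data known. Named from each list were the 4 genes with the smallest p, except 1 of the calcium-handling list that is not reported here, and the 5 genes most like S100a4. The columns of replicate 1 are named Set1 with the genotype, a word the other columns lack, and were mapped by genotype and number to the titles. What a set is was not stated, and the sample descriptions number both female DKO samples 2, so which female DKO library is replicate 1 rests on the titles alone, as do values for pairs of libraries. Alternatives were other pseudocounts, filters, scalings, weights and models, and left-out libraries.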

Additional observations from a re-analysis of the deposited data

Results flagged for a closer look

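For Lgals3 and Anxa5 the difference between DKO and WT had opposite signs in the female and the male libraries, where the male value rests on 1 library against 1. For Lgals3 the mean difference on log2(RPKM + 1) was 1.26 between female libraries and -0.53 between the male libraries. For Anxa5 the values were 0.38 and -0.092, and both male libraries (RPKM 51.6 and 48.3) lay within the range of the WT libraries (47.3 to 56.5). In limma's interaction fit, whose spread comes from the female libraries alone, the adjusted p was 0.9997 for both, with an unadjusted p of 0.00898 for Lgals3 and 0.468 for Anxa5. Of all tested genes 13.2% showed such opposite signs.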

How the results depend on the processing

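The log2 change of each of the 10 genes kept its sign under the 19 alternatives. None of these used the male libraries alone, between which Lgals3 was at -0.53 and Anxa5 at -0.092, against the sign in all 6 libraries. Over all genes 8 were lower and 1 higher. With array weights 20 were lower and 4 higher, with voom 0 and 0, and in the 4 shallower libraries 1 and 0. The higher count was 0 with a pseudocount of 0.1 and with the stricter filter (RPKM of at least 5), 3 with quantile normalization, and 2 with no variance trend and with sex as a covariate. Leaving out 1 library gave 0 to 13 lower and 0 to 2 higher. The lower count was 2 without WT replicate 1, 0 without WT replicate 2 and 0 without WT replicate 3, and 13 without DKO replicate 1. Of the galectin counter-receptor list 1 gene, Cd7, passed with the stricter filter and 1 with array weights. Among the 10 genes the groups lay wholly apart in the higher direction for 2 without DKO replicate 3, and for 0 to 2 over the libraries left out. The position in the order of levels was kept by 3 genes in WT replicate 1 alone, 6 in WT replicate 3 alone, 6 in DKO replicate 2 alone and 2 in DKO replicate 3 alone. The cause of these shifts was not tested. Quantile normalization and median ratio scaling moved the median of all genes from -0.11 to 0.01 and -0.02. With replicate number as a replicate block 8 were lower and 1 higher, as without it. Deviations of same-numbered libraries correlated at 0.226, 0.146 and 0.075, not above 0.1 in each, so the numbers were not taken to pair the libraries, although each library correlated best with its own number. Depth limits S100a4 most, with 20 reads in the male DKO library.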
